A study of Homo sapiens with 12 samples.

Results

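The 70 genes described here encode the replication-dependent core histones and the linker histones, and they were measured in U251 cells, a human glioblastoma line. They were every gene of the table whose symbol belongs to the numbered H1, H2A, H2B, H3 and H4 families, 70 of 45416 genes: 10 H1, 16 H2A, 17 H2B, 13 H3 and 14 H4 genes. Cells carried a control siRNA (siNC) or either of 2 siRNAs that target *PD-L1*, named siPDL1-1 and siPDL1-2. For each siRNA some cultures received IFNγ at 100 U/ml for 24 h and others did not. The genotype was labelled wild type throughout, and each of the 6 groups held 2 libraries, 12 in all, with 17101069 to 55657393 reads on genes. All cells were of 1 established line, so every comparison is within that line.

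Core histones H2A, H2B, H3 and H4 form the particle around which DNA is wrapped, and H1 linker histones bind the DNA between particles. Most of these genes lie in clusters and are transcribed mainly while DNA is replicated. Their mRNAs usually end in a short stem-loop in place of a poly(A) tail, and the stem-loop binding protein guides their processing. *H1-10*, by contrast, is a linker histone gene with a polyadenylated mRNA that is made outside S phase, while *H1-7* and *H1-8* are germ-cell forms. The libraries were made with an mRNA kit after poly(A) selection, so a level here is that of the polyadenylated or carried-over RNA of a gene and not of all its RNA. In bulk samples, fewer cells expressing a gene and less RNA per cell cannot be told apart.

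The target of the siRNAs was read first. *CD274*, which encodes PD-L1, was at 4.60 and 4.91 CPM in unstimulated siNC cells, at 2.67 and 2.73 CPM with siPDL1-1 and at 3.57 and 3.45 CPM with siPDL1-2. After IFNγ the levels were 71.2 and 76.0 CPM with siNC, 60.9 and 66.7 CPM with siPDL1-1 and 37.5 and 35.0 CPM with siPDL1-2. In stimulated cells *CD274* was thus lower than in siNC by 1.00 on the log2 scale with siPDL1-2 (limma FDR = 4.25e-07), while the difference with siPDL1-1 was -0.20 (FDR = 0.0498) and did not pass the threshold of 0.01. Reads of its antisense neighbour *AL162253.2* (3.21 CPM) could be counted with it. The labelled cell type was checked against its markers: *VIM* (3502 CPM on average), *CD44* (523 CPM), *SOX2* (161 CPM) and *NES* (156 CPM) were abundant, *GFAP* was low at 4.38 CPM, and *OLIG2* was near 0 at 0.127 CPM. Of the leukocyte markers, *PTPRC* averaged 0.0955 CPM, *AIF1* 0.00211 CPM and *CD3E* 0.00200 CPM, whereas *CD68* was at 46.0 CPM. Of the epithelial markers, *EPCAM* averaged 0.0745 CPM and *CDH1* 0.0252 CPM, whereas the keratin gene *KRT8* was at 30.9 CPM. The endothelial markers *PECAM1*, *CDH5* and *VWF* averaged 0.172, 0.778 and 2.79 CPM, and of the neuronal ones *RBFOX3* and *SYT1* averaged 0.364 and 2.64 CPM and *MAP2* 69.6 CPM.

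Of the 70 genes, 55 lay on chromosome 6 (GRCh38, chr6:25726063-27893891) and 11 on chromosome 1 (chr1:149782689-149887965). *H1-10* and *H1-8* lay on chromosome 3 and *H1-7* on chromosome 12. The stem-loop was searched for by the histone stem-loop consensus in the 200 bases after each stop codon. It was found in 66 genes, at 22 to 67 bases after the stop codon (median 35). *H1-10*, *H1-7* and *H1-8* were among the genes without it. The 66 elements of 16 bases had 10 distinct sequences, of which the commonest was shared by 38 genes. The elements of 5 of the more abundant genes are given with 5 bases on each side because they show how little the element varies. Capitals mark the stem-loop, and bases are DNA letters of the GRCh38 genome on the gene's strand.
H1-2: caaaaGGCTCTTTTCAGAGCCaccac
H2BC12: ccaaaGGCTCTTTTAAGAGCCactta
H2AC6: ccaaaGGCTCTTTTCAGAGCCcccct
H4C14: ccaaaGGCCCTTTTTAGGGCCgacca
H3C6: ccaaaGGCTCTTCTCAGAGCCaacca
The capitals lie at chr6:26055744-26055759 in *H1-2*, chr6:27146366-27146381 in *H2BC12*, chr6:26124669-26124684 in *H2AC6*, chr1:149833032-149833047 in *H4C14* and chr6:26225596-26225611 in *H3C6*.

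Promoters of 64 of the 70 genes were matched by symbol in the RefSeq set (GRCh38.p14, 250 bases before to 50 after the start). The octamer ATTTGCAT, read on both strands, was present in 14 of 17 H2B promoters (82.4%) and 11 of 15 H2A promoters (73.3%), in 1 of 11 H3 promoters and in none of the 9 H1 or 12 H4 promoters. It was present in 1.8% of all 27305 promoters. CCAAT was found in 84.4% of the histone promoters against 35.7% of all, and TATAAA in 65.6% against 12%. Of letters resembling sites of interferon-activated factors, TTCNNNGAA was in 1 of 64 histone promoters (1.56%, against 7.88% of all) and the pattern of GAAA, any 2 bases and GAAA, which resembles an interferon-stimulated response element, in 5 (7.81%, against 3.65%). The octamers of 4 genes described further on are shown with 8 bases on each side, in capitals.
H2BC12: ttcaccttATTTGCATgagaggtc
H2AC6: catacctcATTTGCATagctctgc
H2BC21: gagccctaATTTGCATaaggtggt
H2BC18: gagtcttcATTTGCATacgggctc
They lie at chr6:27146897-27146904, chr6:26124042-26124049, chr1:149886721-149886728 and chr1:149812412-149812419. The *H2AC6* octamer, on the strand opposite to that gene, is the same site as that of its neighbour *H2BC4*. Other sites were shared as well: that of *H2BC21* is also that of *H2AC20*, and the H3 site, in *H3C4*, is also that of *H2BC7* and *H2AC7*. The counts per family are thus of promoters and not of separate sites. A match describes the letters of the window only.

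Most of the histone genes were at low levels. No read was counted for 7 of the 70 in any library (10%, against 34.3% of all genes), 23 averaged under 0.1 CPM with at least 1 read, 22 averaged 0.1 to under 1 CPM, and 18 (25.7%) averaged at least 1 CPM, compared to 31.4% of all genes. The median of the genes' mean levels was 0.178 CPM for the histone genes and 0.0263 CPM for all genes. Only 6 averaged at least 10 CPM. *H1-10*, which has no stem-loop, led at 99.5 ± 21.9 CPM (SD over 12 libraries). Among genes with a stem-loop, *H1-2*, a replication-dependent linker histone gene, was at 34.5 ± 6.28 CPM, *H2BC12* at 18.1 ± 3.69 CPM, *H2AC6* at 12.6 ± 4.05 CPM and *H4C14* at 12.0 ± 3.87 CPM. *H2AC19* (8.31 CPM), *H4C15* (5.52 CPM), *H2BC5* (4.44 CPM) and *H2BC9* (2.89 CPM) were also among the 10 most abundant. Per kb of exon, where the deposited span lay within 150 bases of the GENCODE 44 span (58 genes), the levels of the genes just named included *H1-10* (65.6 CPM per kb), *H1-2* (47.2), *H2BC12* (36.6), *H2AC19* (15.6), *H2AC6* (7.53), *H4C14* (6.40) and *H2BC5* (5.15).

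Genes differed in how far their annotated span ran past the stem-loop. In 22 of the 66 stem-loop genes it ended more than 100 bases beyond the element, and 19 of these had the polyadenylation letters AATAAA in that stretch. Their median level was 1.10 CPM and 12 of 22 averaged at least 1 CPM. The other 44 had a median of 0.0632 CPM and 4 averaged at least 1 CPM, namely *H1-2*, *H2BC12*, *H2AC19* and *H2AC18*. Per kb of exon the medians were 1.10 CPM per kb for long spans (n = 11) and 0.128 CPM per kb for the others (n = 43). The 11 long-span genes with a value per kb were the more abundant ones, with a median level of 2.44 CPM against 0.583 CPM for the 11 without, and the part of span length in the difference was not tested. The span of *H2AC6* ran 14432 bases past its stem-loop, that of *H2BC5* 12747 bases and that of *H4C14* 6720 bases. The values are counts over whole genes, so which end a transcript had was not measured.

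**Figure D1:**
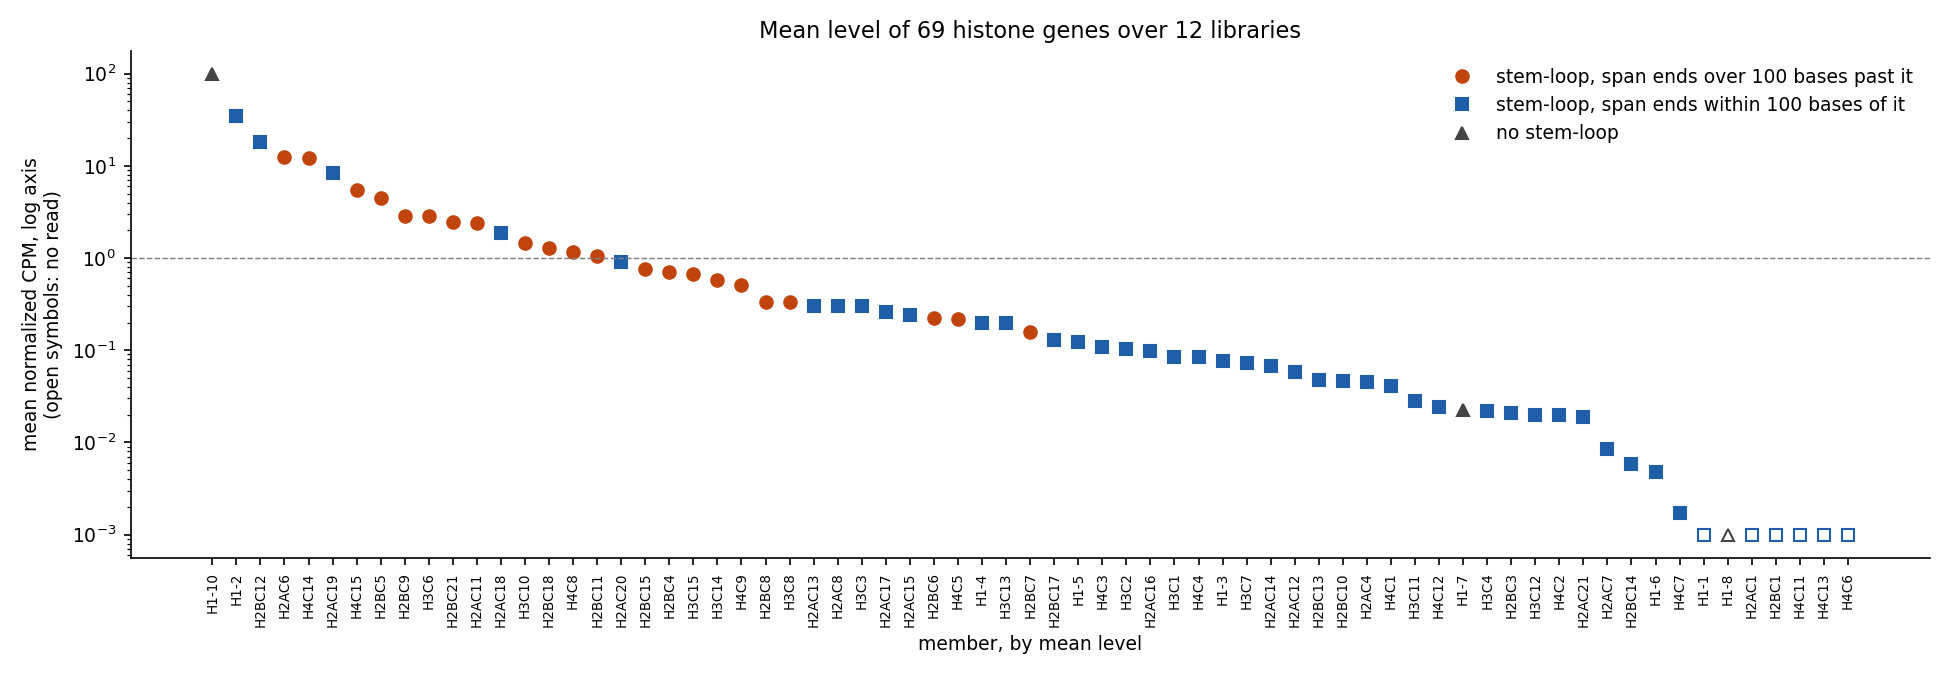
Mean level of 69 of the histone genes over the 12 libraries in normalized CPM (log axis), ranked, with symbols for the presence of a stem-loop and for how far the annotated span runs past it; open symbols at the bottom are the 7 genes with no read, and the dashed line is 1 CPM. The stem-loop genes with long spans lie mostly to the left (median 1.10 CPM) and those with short spans mostly to the right (median 0.0632 CPM), with H1-2, H2BC12, H2AC19 and H2AC18 as the short-span genes above 1 CPM.

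Some of these genes cannot be told apart by their reads. In 11 of the 70, more than 50% of the 50-base stretches of the gene occurred in another of them, and 35 shared none. Among the 11 was *H2AC17*, whose span overlaps that of its closest match, *H3C12*, on the same strand. *H4C11*, with no read, and *H4C12* (0.0242 CPM) shared 92.1% and 92.6% of their stretches, and their sum was not tested. The pairs *H2AC18* and *H2AC19*, *H3C14* and *H3C15*, and *H4C14* and *H4C15* were nearly or fully identical over their exons. *H2AC18* was at 0 in 6 of 12 libraries and reached 5.63 CPM in another, while *H2AC19* ranged from 3.62 to 13.7 CPM. In siPDL1-1 cells without IFNγ, *H2AC18* was at 0 and 5.63 CPM and *H2AC19* at 8.47 and 3.84 CPM, yet the sum of the pair was 8.47 and 9.46 CPM. *H4C14* and *H4C15* behaved in the same way after IFNγ in siPDL1-1 cells, at 19.8 and 11.1 CPM and at 2.16 and 9.41 CPM, with a sum of 21.2 ± 1.08 CPM (SD, n = 2). Values of either gene of these pairs are therefore uncertain, and changes are given for their sums. The counts and medians over 35 tested genes below still include each of them singly.

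**Figure D2:**
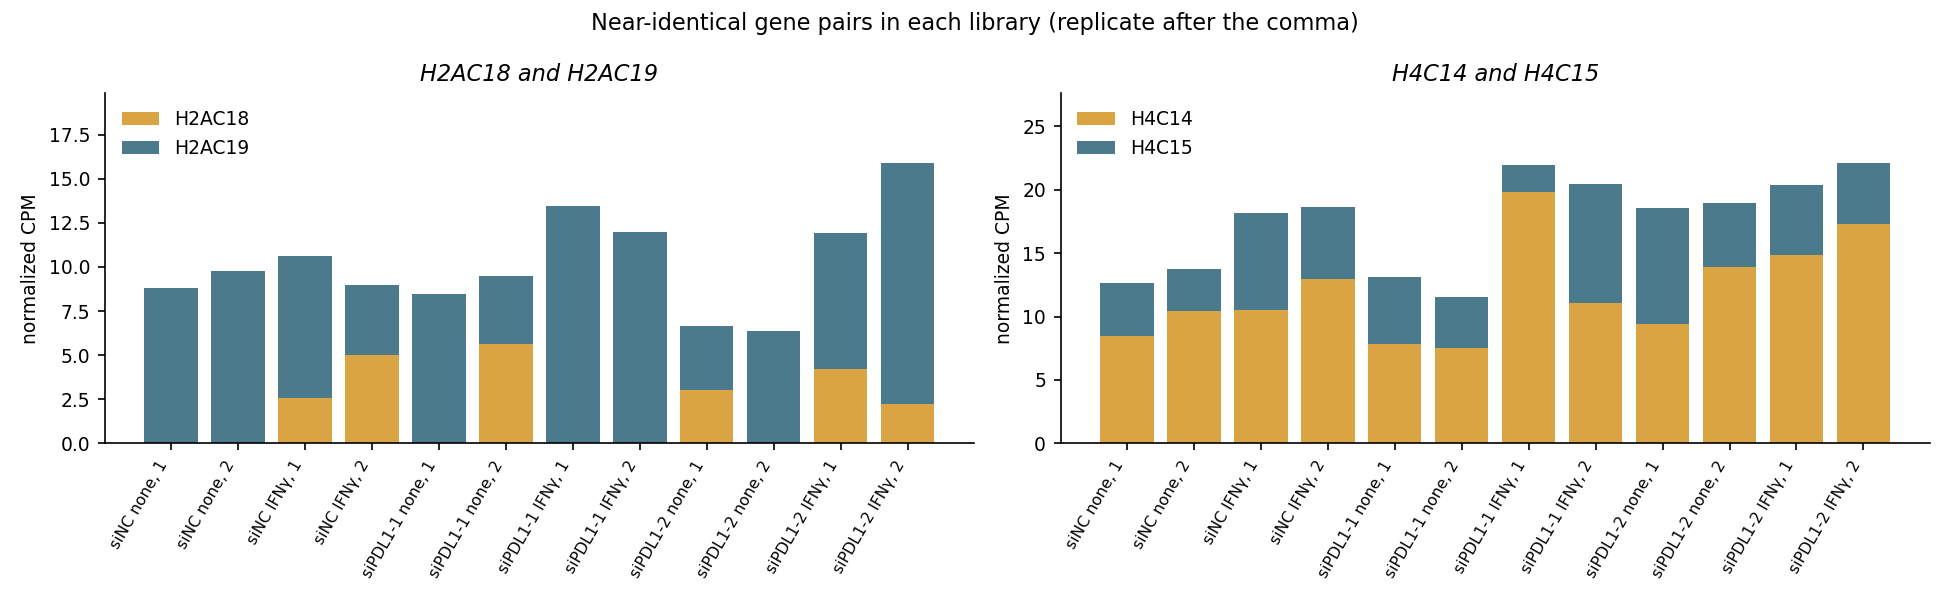
Normalized CPM of 2 near-identical gene pairs in each library, stacked so that the bar height is the pair's sum. The split between H2AC18 and H2AC19 changes from library to library, including between replicates of 1 group, and H2AC18 is at 0 in 6 of the 12 libraries.

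The question of the first comparisons was what IFNγ did to these genes. In siNC cells *H2AC6*, which encodes a core H2A histone, rose, and it was the 1 of 35 tested histone genes called (FDR under 0.01 and fold change over 1.5), against 8.12% of all 17982 genes tested in either direction and 6.67% called higher. Its level was 7.39 and 6.81 CPM without and 13.7 and 12.9 CPM with IFNγ, groups that did not overlap, a change of 0.82 ± 0.09 on the log2(CPM + 1) scale (SE, limma FDR = 3.05e-06). *H2BC5*, a core H2B gene, went from 3.18 and 2.88 to 4.81 and 5.25 CPM (log2 change 0.58, FDR = 0.000858), just under the fold threshold. *H4C8*, a core H4 gene, went from 0.685 and 0.860 to 1.46 and 1.37 CPM (log2 change 0.45, FDR = 0.00509). The 1 CPM added before taking logs lowers the change of genes near that level: edgeR, which does not add it, gave 0.81 for *H4C8* (FDR = 0.0117) and 0.72 for *H2BC5* (FDR = 0.00105), the latter past both thresholds. No histone gene fell at this FDR in the main test. *H1-10* had a log2 change of -0.35 (FDR = 0.114), which rested on single libraries: it was -0.59 (FDR = 0.001) without the first stimulated siNC library, -0.12 (FDR = 0.488) without the second, and -0.20 (FDR = 0.407) without the second unstimulated one. At an FDR under 0.01 at any fold, 4 of 35 histone genes (11.4%) passed, all higher, and 27.3% of all genes did. The median change was 0.10 over the 35 histone genes and 0.00 over all genes.

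With siPDL1-1, 3 of 35 histone genes were called, all higher with IFNγ (background 6.87% in either direction, 5.58% higher), and 7 passed the FDR alone (20%, against 22.9% of all genes). *H2AC6* rose from 7.60 and 8.12 to 15.6 and 18.1 CPM (log2 change 1.01 ± 0.09, FDR = 3.33e-07). *H2BC21*, a core H2B gene of the chromosome 1 cluster, rose from 1.71 and 1.60 to 3.21 and 3.48 CPM (log2 change 0.71, FDR = 0.000849), although without the second unstimulated siPDL1-1 library the FDR was 0.0123. *H2BC12*, *H2BC5*, *H3C10* and *H4C8* also passed the FDR, with log2 changes of 0.41, 0.57, 0.46 and 0.55. By edgeR the changes of *H2BC5*, *H3C10* and *H4C8* were 0.72, 0.77 and 1.19 (FDR = 0.000984, 0.00989 and 0.00178), past both thresholds, while DESeq2 gave *H3C10* and *H4C8* an FDR of 0.0937 and 0.0230.

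With siPDL1-2 a different gene passed both thresholds: *H2BC18*, a core H2B gene of chromosome 1, was the only limma call among the 35 (background 5.27% in either direction, 3.62% higher). It went from 0.839 and 0.946 to 1.88 and 2.02 CPM (log2 change 0.64 ± 0.14, FDR = 0.00296), but its FDR rose to between 0.0127 and 0.0319 when any of its own 4 libraries was left out, and DESeq2 gave 0.0246. With no filter on low counts the limma FDR of *H2BC18* was 0.011. In siPDL1-1 cells this gene also went up with IFNγ, from a mean of 0.858 to 1.51 CPM, in groups that did not overlap. That change was 0.44 on the log2 scale (limma FDR = 0.0224) and did not pass. For IFNγ with siPDL1-2, edgeR called 4 (*H2BC5*, *H2BC12*, *H2BC18* and *H3C8*) and DESeq2 2 (*H1-10* and *H2BC12*). Over all 17982 genes edgeR called 1052 and DESeq2 952. *H1-10* went from 70.1 and 77.0 to 110 and 118 CPM (log2 change 0.63 ± 0.15), past the fold threshold with a limma FDR of 0.0188 and a DESeq2 FDR of 0.000651. limma called it with no filter on low counts (FDR = 0.00725) and without the first or the second stimulated siNC library (FDR = 0.00018 and 0.000186). *H2BC12* rose from 16.6 and 16.9 to 24.6 and 25.5 CPM (log2 change 0.56 ± 0.08, FDR = 0.000103), below the fold threshold by the main test and above it by edgeR and DESeq2. *H1-2* rose from 35.3 and 32.8 to 43.7 and 44.8 CPM (log2 change 0.37, FDR = 0.00503). *H2AC6*, already at 13.3 and 14.1 CPM without IFNγ, was at 16.2 and 16.9 CPM with it (log2 change 0.25, FDR = 0.0413) and did not pass. In all, 6 of 35 histone genes passed the FDR (17.1%, the same as for all genes), all higher, among them *H1-2*, *H2BC5*, *H2BC12*, *H2BC18* and *H3C8*.

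Across the 3 siRNAs, *H2BC5* passed the FDR with IFNγ each time by limma and edgeR, with log2 changes of 0.58, 0.57 and 0.49 by limma, while DESeq2 gave an FDR of 0.0301 with siPDL1-2. Over the alternatives its FDR reached 0.0143 with siNC without the second stimulated siNC library, and 0.0237 and 0.0721 with siPDL1-1 and siPDL1-2 without the second unstimulated library of each. Such losses were common: in the 11 comparisons together, histone genes passed the FDR at any fold 36 times, and 26 of these had an FDR of 0.01 or more under at least 1 alternative. *H2BC5* overlaps a gene on the opposite strand (*AL353759.1*, 0.752 CPM on average), and reads had been counted on both strands.

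The near-identical pairs were tested as sums, which were formed after the data had been seen. *H4C14* plus *H4C15* rose with IFNγ by 0.45 on the log2 scale with siNC (FDR = 0.000313) and by 0.74 with siPDL1-1 (FDR = 3.12e-06), and only the latter passed the fold threshold. With siPDL1-2 its change was 0.17 (FDR = 0.119), from an unstimulated level that was higher than with siNC (log2 difference 0.48, FDR = 0.000207). *H2AC18* plus *H2AC19* went with IFNγ from 6.64 and 6.38 to 11.9 and 15.9 CPM with siPDL1-2 (log2 change 0.97, FDR = 2.48e-05), past both thresholds. Its change was 0.46 with siPDL1-1 (FDR = 0.00824) and 0.07 with siNC (FDR = 0.699), and its unstimulated level was lower with siPDL1-2 than with siNC (log2 difference -0.45, FDR = 0.00782). *H3C14* plus *H3C15* had IFNγ changes of -0.10, 0.43 and 0.03 with siNC, siPDL1-1 and siPDL1-2 (FDR = 0.653, 0.0332 and 0.897), none of which passed. This sum was higher with siPDL1-1 than with siNC after IFNγ (log2 difference 0.54, FDR = 0.00973), below the fold threshold. *H3C14* (0.583 CPM) overlaps *H4C14* (12.0 CPM) on the opposite strand, and *H3C15* (0.671 CPM) overlaps *H4C15* (5.52 CPM). Reads had been counted on both strands, so the value of this sum is uncertain.

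**Figure D3:**
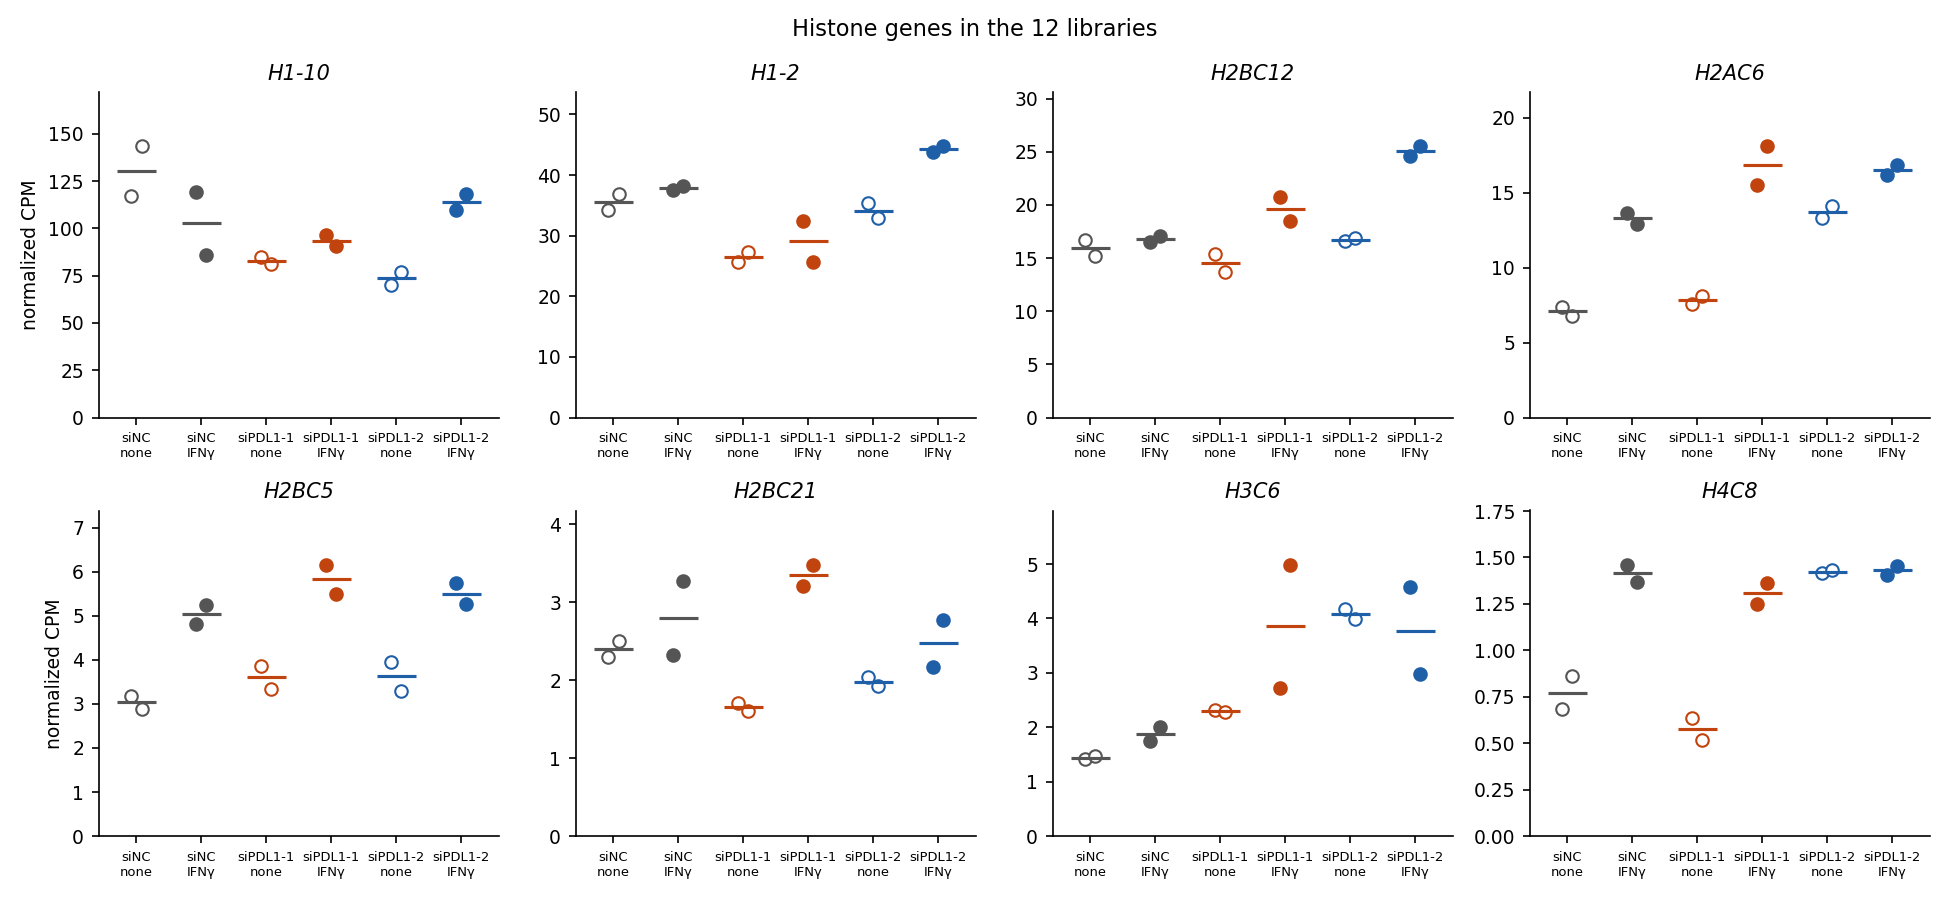
Normalized CPM of 8 histone genes in each of the 12 libraries (open points unstimulated, filled points IFNγ, lines the means of 2 libraries, linear axes from 0). H2AC6 lies between 6.81 and 8.12 CPM in the unstimulated siNC and siPDL1-1 libraries and between 12.9 and 18.1 CPM in all others, while the 2 libraries of each siNC group are far apart for H1-10.

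Whether the IFNγ effect differed with the siRNA was tested as an interaction. For siPDL1-1 against siNC, limma called none of the 35 histone genes (background 0.968%), and 8 had an unadjusted p under 0.05. edgeR and DESeq2 called 0 as well, against 163 and 162 of all 17982 genes. Counts at an unadjusted p under 0.05, here and below, have no share of all genes beside them and are not read as results. Of the 35, 1 passed the FDR alone (2.86%), with a higher IFNγ effect than in siNC cells. The share of all genes at the FDR alone is not given for this comparison, so the count cannot be judged against it. For siPDL1-2 against siNC, limma again called none (background 7.62%), and 9 had an unadjusted p under 0.05. edgeR called 1 and DESeq2 called 2, against 1445 and 1348 of all 17982 genes. At the FDR alone 2 passed, and 17.1% of all genes did. The rise of *H2AC6* was smaller with siPDL1-2 by 0.57 on the log2 scale (interaction -0.57 ± 0.12, FDR = 0.00334), and that of *H2BC12* larger by 0.48 ± 0.11 (FDR = 0.00517). *H1-10* had an interaction of 0.98 ± 0.22 and an FDR of 0.0124, which fell to 0.00737 without the first unstimulated siNC library, to 9.09e-05 without the first stimulated siNC library and to 0.00296 without the second. It rose to as much as 0.0499, without the second stimulated siPDL1-2 library. With no filter on low counts limma called it (FDR = 0.00486), as did DESeq2 (1.02, FDR = 7.56e-05), but not edgeR (FDR = 0.0120). The summed pair *H2AC18* and *H2AC19* rose more with siPDL1-2 than with siNC by 0.91 (FDR = 0.00134).

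In unstimulated cells the comparisons asked what each *PD-L1* siRNA changed relative to siNC. Both used the same 2 siNC libraries, so they are not independent. With siPDL1-1, limma called none of the 35 histone genes (background 4.00%), and 10 had an unadjusted p under 0.05. That count has no share of all genes beside it. edgeR called 0 and DESeq2 called 1, against 872 and 743 of all 17982 genes. *H1-2* was lower, at 25.6 and 27.3 against 34.2 and 36.8 CPM (log2 difference -0.41, FDR = 0.00208). Its groups did not overlap, and it did not pass the fold threshold. At the FDR alone 2 of 35 passed, and 18.8% of all genes did. The gene DESeq2 called was *H1-10*, at 84.6 and 81.2 against 117 and 143 CPM (log2 difference -0.64 ± 0.15, limma FDR = 0.0168, DESeq2 FDR = 0.000235). limma called it too with no filter on low counts (FDR = 0.00583) and without the first or the second stimulated siNC library (FDR = 0.000152 and 0.000157).

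With siPDL1-2, 3 of 35 were called, 2 higher and 1 lower (background 6.17%, with 4.84% higher and 1.33% lower). *H2AC6* was at 13.3 and 14.1 CPM against 7.39 and 6.81 CPM (log2 difference 0.86 ± 0.09, FDR = 2.93e-06), a level above both unstimulated groups and close to that of stimulated siNC cells. *H3C6*, a core H3 gene, was at 4.17 and 4.00 against 1.42 and 1.47 CPM (log2 difference 1.06 ± 0.19, FDR = 0.000682). *H1-10* was lower, at 70.1 and 77.0 against 117 and 143 CPM (log2 difference -0.81 ± 0.15, FDR = 0.00394). The call of *H1-10* was lost in 5 of 19 alternatives, with an FDR of 0.0176 without the second unstimulated siNC library, 0.0267 and 0.0152 without either siPDL1-2 library, and 0.0147 and 0.0148 without either stimulated siPDL1-1 library. Its stimulated siNC libraries were far apart, at 119 and 85.9 CPM. *H1-10* also overlaps *H1-10-AS1* on the opposite strand, which averaged 1.24 CPM. At the FDR alone 6 passed (17.1%, against 28.4% of all genes), with *H2BC15* and *H4C8* also higher by limma (FDR = 0.00403 and 0.00456) but past 0.01 by edgeR (0.0135 and 0.0133) and DESeq2 (0.0649 and 0.105).

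**Figure D4:**
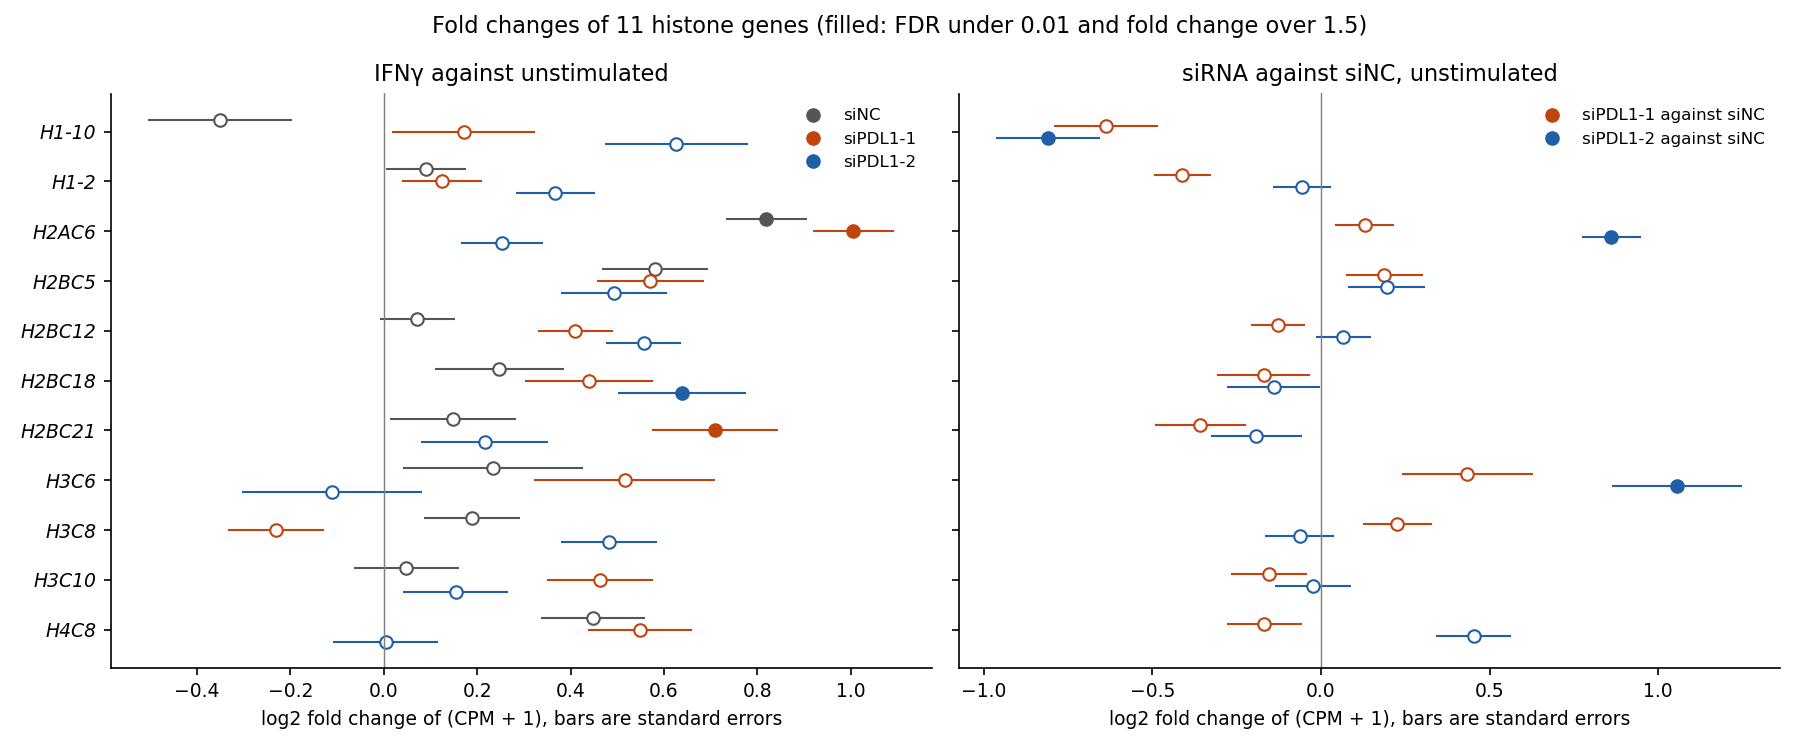
Log2 fold changes of (CPM + 1) with standard errors from limma for 11 histone genes, for IFNγ against unstimulated cells with each siRNA (left) and for each PD-L1 siRNA against siNC in unstimulated cells (right); filled points passed FDR under 0.01 and fold change over 1.5. H2AC6 is filled for IFNγ with siNC and siPDL1-1 but not with siPDL1-2, and is filled on the right for siPDL1-2.

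In stimulated cells, limma called no histone gene for either siRNA against siNC. For siPDL1-1 (background 5.47%), 5 had an unadjusted p under 0.05. edgeR and DESeq2 each called 1, against 1247 and 1069 of all 17982 genes. For siPDL1-2 (background 3.13%), 9 had an unadjusted p under 0.05. edgeR called 1 and DESeq2 called 2, against 755 and 634 of all 17982 genes. At the FDR alone 1 of 35 passed in each comparison, against 23.8% and 18.4% of all genes. The gene was *H1-2* with siPDL1-1, at 32.5 and 25.7 CPM against 37.6 and 38.1 CPM (log2 difference -0.38, FDR = 0.00308), and *H2BC12* with siPDL1-2, at 24.6 and 25.5 CPM against 16.5 and 17.1 CPM (log2 difference 0.55, FDR = 0.000139). The difference of *H1-2* was -0.54 without the first stimulated siPDL1-1 library and -0.21 (FDR = 0.0283) without the second, and its FDR was 0.0128 and 0.0222 without either stimulated siNC library. *H3C6* had log2 differences of 0.72 (FDR = 0.0107) and 0.71 (FDR = 0.0134), just short of the FDR threshold. Over the alternatives the difference ranged from 0.37 to 1.06 with siPDL1-1 and from 0.47 to 0.99 with siPDL1-2. The lowest value of each lay below the fold threshold. The calls edgeR and DESeq2 made with siPDL1-1 were of this gene (FDR = 0.00596 and 0.00351), as was 1 of those of DESeq2 with siPDL1-2 (FDR = 0.0069). Leaving out 1 library at a time, its limma FDR ranged from 0.000230 without the first stimulated siPDL1-1 library to 0.115 without the second for siPDL1-1, and from 0.00105 without the first stimulated siPDL1-1 library to 0.133 without the first stimulated siPDL1-2 library for siPDL1-2. Its replicates were far apart, at 2.72 and 4.99 CPM with siPDL1-1 and 4.57 and 2.97 CPM with siPDL1-2.

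The siRNAs were also set against each other. In unstimulated cells 2 of 35 histone genes were called, both lower with siPDL1-1 than with siPDL1-2 (background 4.35%, with 3.47% lower): *H2AC6* (log2 difference -0.73, FDR = 2.15e-05) and *H4C8*, at 0.638 and 0.518 against 1.41 and 1.43 CPM (log2 difference -0.62, FDR = 0.000582). Without the second unstimulated siPDL1-1 library the FDR of *H4C8* was 0.0118. edgeR gave it -1.31 (FDR = 0.000539), and DESeq2 gave -1.30 with no adjusted p, since it filters low counts itself. At the FDR alone 3 of 35 passed before IFNγ (24.1% of all genes) and 3 after it (10.5% of all genes). After IFNγ 1 of 35 was called (background 2.23%, with 0.439% lower): *H1-2* was lower with siPDL1-1 by 0.60 on the log2 scale (FDR = 0.000176). The 2 siPDL1-1 libraries differed for this gene, and without the second the change was -0.44, below the fold threshold, as it was at -0.58 without the second siPDL1-2 library.

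Summed over the 66 stem-loop genes, the level was 104 and 107 CPM in unstimulated siNC cells and 126 and 125 CPM after IFNγ. It was 93.5 and 92.2 CPM and then 137 and 128 CPM with siPDL1-1, and 118 and 116 CPM and then 151 and 159 CPM with siPDL1-2. Within each siRNA the stimulated libraries were thus the higher ones, and unstimulated siPDL1-2 cells lay between the unstimulated and stimulated siNC cells. *H1-2* alone made up 33.7% ± 1.12 of this sum in unstimulated siNC cells and 21.9% ± 2.60 in stimulated siPDL1-1 cells (SD, n = 2). The sum over H3 genes was the smallest, at 5.04 to 9.79 CPM, followed by H4 (13.1 to 24.8 CPM), H2A (20.4 to 38.8 CPM) and H2B (25.4 to 42.5 CPM). Because the summed genes were chosen with these data known, no test is given. Across the 12 libraries the genes whose log2 level was most like that of the sum were *NEFL* (Pearson's r = 0.930), *DNAJC1* (0.929), *HAS3* (0.929), *CA13* (0.927) and *FOXD2* (0.925), out of 14260 compared, which is a description of libraries that share their conditions.

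Genes that act with these histones were read from 4 lists. Of the replacement histone variants, most of which are made independently of DNA replication, 9 of 10 listed were tested, and 1 was called lower with IFNγ in siNC cells (background 1.45%): *H2AX*, the variant phosphorylated at DNA breaks, fell from 96.1 and 109 to 77.0 and 56.3 CPM (log2 change -0.63, FDR = 0.00386). That call was lost without the second unstimulated siNC library (FDR = 0.0255), without either stimulated siPDL1-1 library (FDR = 0.0206 and 0.0205), and without the second stimulated siNC library, where the change was -0.41. It was also lower with siPDL1-2 in unstimulated cells, at 54.3 and 53.8 CPM (log2 difference -0.91, FDR = 0.000440). With IFNγ *H2AX* was at 71.1 and 80.8 CPM in siPDL1-2 cells, so its change differed from that in siNC cells (interaction 1.11 ± 0.18, FDR = 0.00202). The interaction had an FDR of 0.0114 or 0.0115 without either stimulated siPDL1-1 library or the second stimulated siPDL1-2 library. *CENPA*, the centromeric H3 variant, was lower with siPDL1-1 after IFNγ, at 31.2 and 30.8 against 52.7 and 55.1 CPM (log2 difference -0.78, FDR = 5.89e-08). Its span overlaps that of *SLC35F6* on the same strand (59.8 CPM), so its value is uncertain. With IFNγ, limma called 0 of the 9 variants under siPDL1-1 and under siPDL1-2 (background 6.87% and 5.27% in either direction), where 6 and 4 had an unadjusted p under 0.05 and edgeR and DESeq2 called 0. The counts of 6 and 4 have no share of all genes beside them.

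All 20 genes listed for histone mRNA processing and decay were tested. *ERI1*, a 3′ exonuclease that acts on the histone stem-loop, was the 1 gene of 20 called with IFNγ in siNC cells (6.67% of all genes were called higher), rising from 23.5 and 24.8 to 46.3 and 46.0 CPM (log2 change 0.91, FDR = 9.22e-07). It rose with siPDL1-1 from 24.0 and 22.1 to 34.2 and 43.5 CPM (log2 change 0.72, FDR = 1.12e-05), and by 0.55, below the fold threshold, without the second stimulated siPDL1-1 library. With siPDL1-2 it was at 36.6 and 37.7 CPM without IFNγ, higher than in siNC cells (log2 difference 0.60, FDR = 6.27e-05, a call that DESeq2 did not make and that was lost without the first unstimulated siNC or the second unstimulated siPDL1-2 library, at 0.56 and 0.58), and at 41.8 and 41.3 CPM with it. Its IFNγ effect was smaller with siPDL1-2 than with siNC (interaction -0.75, FDR = 0.000451), the same direction as for *H2AC6*. *NPAT*, the coactivator of histone gene transcription, had an interaction of -0.63 with siPDL1-2 (FDR = 0.00302), and its FDR was 0.0121 to 0.0160 without any 1 of the unstimulated siNC and siPDL1-2 libraries or the second stimulated siPDL1-2 library.

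Of the 22 genes for histone chaperones and assembly, 1 was called lower with siPDL1-1 (background 1.45%) and 3 with siPDL1-2 (background 1.33%) in unstimulated cells. *HJURP*, the chaperone of CENPA, was in both, at 117 and 113 CPM with siNC, 70.6 and 74.9 CPM with siPDL1-1 and 70.4 and 71.3 CPM with siPDL1-2 (log2 differences -0.66 and -0.70, FDR = 1.44e-07 and 6.47e-08). With siPDL1-1 *HJURP* was also called lower than in siNC cells after IFNγ (log2 difference -0.82, FDR = 6.38e-09). *SSRP1*, a subunit of the FACT chaperone, was at 420 and 415 CPM with siNC and 268 and 259 CPM with siPDL1-2 (log2 difference -0.66, FDR = 7.44e-09), and *TONSL* was lower by 0.66 as well (log2 difference -0.66, FDR = 0.000119), or by 0.58, below the fold threshold, without the second unstimulated siNC library. The IFNγ effect on *TONSL* was higher with siPDL1-2 than with siNC (interaction 0.90, FDR = 0.000401). For that interaction 1 of the 22 was called higher and 1 lower (background 7.62% in either direction). *HIRA*, a chaperone of H3.3, rose with IFNγ in siPDL1-1 cells, from 41.4 and 40.5 to 70.0 and 67.7 CPM (log2 change 0.74, FDR = 7.64e-08), and this change differed from that in siNC cells (interaction 0.93, FDR = 2.58e-06), where *HIRA* was at 47.6 and 47.5 CPM without and 43.6 and 39.6 CPM with IFNγ. It overlaps *MRPL40* on the opposite strand (26.1 CPM). Of the 43 S-phase genes, limma called 0 with IFNγ under siNC, siPDL1-1 and siPDL1-2 (background 8.12%, 6.87% and 5.27% in either direction), where 23, 23 and 17 had an unadjusted p under 0.05 and edgeR and DESeq2 each called 0, 1 and 0. The counts at that p have no share of all genes beside them. An FDR under 0.01 at any fold was passed by 27.3%, 22.9% and 17.1% of all genes. Median log2 changes of the 43 were -0.13, -0.10 and -0.06 in that order, and 0.00, -0.02 and -0.01 over all genes. With siPDL1-1 against siNC, 2 of the 43 were called lower in unstimulated cells (background 1.45%) and 3 after IFNγ (background 1.75%). The repair genes *UNG* and *RAD51AP1* were lower in both (log2 differences -0.76 and -0.70 without and -0.65 and -0.72 with IFNγ), and the helicase gene *BLM* was called after IFNγ (log2 difference -0.74). The last call of *RAD51AP1* was lost without the first stimulated siPDL1-1 library, at -0.51. The median over the 43 was -0.17 in both comparisons, with 35 and 38 of 43 below 0. Over all genes the medians were 0.016 and -0.0049. The part of cell-cycle state in the histone values was not tested.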

How the data were processed

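RNA-seq of 12 U251 libraries was analysed. Per the methods, the authors used CLC Genomics Workbench to trim, map (GRCh38, Ensembl), count on both strands and normalize, and kept reads with several hits up to a limit. The signal values are the normalized CPM deposited by the authors, from which reads were recovered (99.989% to 100% of values whole within 0.01 of a read). Genes were kept with filterByExpr (minimum count 10, total 15), and 35 of the 70 histone genes passed. The main test was limma 3.58.1 (trend, robust) on log2(CPM + 1) with all 12 libraries as 6 groups, Benjamini-Hochberg FDR over 17982 genes, called at FDR under 0.01 and fold change over 1.5. edgeR 4.0.16 (quasi-likelihood) and DESeq2 1.42.0 were run on the recovered reads as alternatives, in R 4.3.3.

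The labels name RNeasy extraction and a stranded mRNA kit, while the methods name TRIzol and poly(A) selection. The methods describe 2 independent experiments, but the labels do not say which libraries belong to which, so p-values measure the spread between these libraries. Named genes are every called histone gene, the 10 most abundant, up to 4 called genes per list, and genes passing the FDR alone where they are given. The results for 1 gene that these rules name and for 1 marker gene are not reported here, though counts of genes include the former. The members and lists were chosen with earlier results of these data known. Stem-loops were read from GRCh38 with GENCODE 44 and promoters from RefSeq.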

Additional observations from a re-analysis of the deposited data

Results flagged for a closer look

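For 2 histone genes the effect of IFNγ differed between siPDL1-2 and siNC by limma's interaction test at an FDR under 0.01. They are 2 of 35 tested (5.71%), where 17.1% of all genes passed for that interaction, and neither passed the fold threshold by limma. For siPDL1-1 against siNC, 1 of 35 passed that FDR (2.86%), below the fold threshold. The share of all genes that passed it there is not given. The rise of *H2AC6* was smaller with siPDL1-2 than with siNC (difference -0.57, FDR = 0.00334), and its unstimulated level was already higher with that siRNA. It passed both thresholds by edgeR (-0.61, FDR = 0.00295), DESeq2 (-0.60, FDR = 0.00835) and a pseudocount of 0.1, but its FDR reached 0.0214 without the second unstimulated siPDL1-2 library. The rise of *H2BC12* was larger with siPDL1-2 than with siNC, by 0.48 (FDR = 0.00517), with an FDR of 0.0270 without the first unstimulated siNC library. Groups of 2 libraries are too small to test a single library as an outlier.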

How the results depend on the processing

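Of the 81 single-gene results rerun under the alternatives, which leave out the pair sums, 0 changed direction and 46 kept their call or lack of one throughout. Of the 36 histone results past an FDR of 0.01 at any fold, 10 stayed past it throughout, and DESeq2 gave 9 an FDR of 0.01 or more. Of the numbers of histone genes called, given in the order IFNγ with siNC, siPDL1-1 and siPDL1-2 (1, 3 and 1 in the main test), a pseudocount of 0.1 gave 3, 6 and 3, edgeR 2, 6 and 4, DESeq2 2, 5 and 2, and an FDR under 0.05 with no fold threshold 4, 9 and 10. Over all 17982 genes the main test called 1460, 1236 and 947, edgeR 1746, 1461 and 1052, and DESeq2 1531, 1264 and 952. An FDR under 0.01 at any fold was already passed by 27.3%, 22.9% and 17.1% of all genes. Under the other settings, the counts of histone genes here and below have no share of all genes beside them. In unstimulated cells siPDL1-1 against siNC went from 0 to 1 with no filter, 1 with DESeq2 and 5 at the looser threshold. There siPDL1-2 went from 3 to 5 with the small pseudocount and 6 at the looser threshold, and siPDL1-1 against siPDL1-2 from 2 to 1 with DESeq2, which gave *H4C8* no adjusted p, and 6 at the looser threshold. Over all genes DESeq2 called 890 in that last comparison. After IFNγ siPDL1-1 against siNC went from 0 to 1 with the small pseudocount, edgeR, DESeq2 and the 6 stimulated libraries alone, and to 3 at the looser threshold. There siPDL1-2 against siNC went from 0 to 1 with the small pseudocount, edgeR and plain CPM, 2 with DESeq2 and 5 at the looser threshold, and siPDL1-1 against siPDL1-2 from 1 to 2 with the stimulated libraries alone and 4. The interaction with siPDL1-1 went from 0 to 1 at the looser threshold. That with siPDL1-2 went from 0 to 1 with the small pseudocount, no filter, edgeR and summed pairs, 2 with DESeq2 and 7 at the looser threshold. Summing near-identical pairs, an alternative chosen after seeing the data, also gave 2 for IFNγ with siPDL1-2. The further calls with the stimulated libraries alone were of *H2AC18*, and 1 of the 5 by DESeq2 was of *H4C14*, genes of near-identical pairs whose single values are uncertain. Apart from the loose threshold and the summed pairs, which change what is counted, the cause was not tested.

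Leaving out 1 library at a time gave 1 to 3, 2 to 5 and 0 to 2 called genes for IFNγ with siNC, siPDL1-1 and siPDL1-2, and 0 to 1 and 2 to 3 for siPDL1-1 and siPDL1-2 against siNC in unstimulated cells. It gave 0 to 1 for each after IFNγ, 1 to 3 and 0 to 1 for siPDL1-1 against siPDL1-2 without and with IFNγ, and 0 to 1 and 0 to 2 for the interactions. The lone library of a group is then assumed to vary like the other groups. With the replicate number as a block, the counts for IFNγ were 1, 3 and 1 and no count moved by over 1.5 times. Replicates with the same number deviated together in only 2 of 15 pairs of groups (correlations -0.13 to 0.19), so the data do not show that the numbers pair the libraries. Of the 70 histone genes, 35 had too few reads to test, and groups of 2 limit every comparison.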
